A study of Mus musculus with 5 samples.

Results

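The clustered protocadherin locus of mouse chromosome 18 held 75 of the 46409 regions in the deposited H3K9me3 table. Members were all regions on chromosome 18 whose start lay between 36900000 and 37900000, and each region was counted once, because neighbouring and nested genes there share regions. Within this 1 Mb lie 3 gene arrays, which run in the order Pcdha, Pcdhb and Pcdhg. H3K9me3 is a histone mark of silent chromatin.

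Clustered protocadherins are cell adhesion proteins of the cadherin superfamily, best known from neurons, where each cell uses a small, largely random choice of them as a surface identity. In the Pcdha and Pcdhg arrays each gene starts with its own large variable exon, which encodes the whole extracellular part, and is spliced to constant exons shared by the array. Pcdhb genes lack constant exons, and each consists of a single large exon. Promoter choice is known to depend on CTCF, cohesin and DNA methylation, and the H3K9 methyltransferase SETDB1 and the chromatin protein SMCHD1 are known to act at the locus in mouse cells.

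The mark was profiled by CUT&Tag, in which an antibody directs a transposase to cut and tag the DNA that carries it, in CD8+ T cells taken from spleens of OT-I:Cas9 mice, whose T cells have a transgenic receptor and express Cas9. Cells of both groups were electroporated with Cas9 ribonucleoprotein, made from 300 pmol of guide and 300 pmol of Cas9 protein, and recovered for 72 hours. The sgNTC group received a non-targeting guide and is labelled Prdm12-wt, and the sgPrdm12 group received a guide against Prdm12 and is labelled Prdm12-ko. Each group had 2 libraries, replicate 1 of both groups being labelled batch 1 and replicate 2 batch 2. The edited cells were populations, not clones, and the degree of editing and the age of the mice are not given in the sources used here. Nothing in the labels says that the libraries came from separate animals, so each p-value reflects library-to-library spread alone, and that spread may be technical. The IgG library was not analysed here, so no level of background signal can be set beside the values.

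Counts over all regions summed to between 843673 and 2353807 per library, and both sgPrdm12 libraries were deeper than both sgNTC libraries. Levels are given as CPM (counts scaled to 1000000 per library after TMM adjustment), which sets the typical region to be equal in all libraries. Prdm12 itself, on chromosome 2, had 64 and 51 counts in sgNTC against 303 and 197 in sgPrdm12 over 4 regions, with a log2 fold change of 0.58 (SE 0.24, edgeR adjusted p = 0.215), and H3K9me3 there does not measure editing. Of 7 T cell marker genes 1 had a region within 5 kb, and of 6 marker genes of other cells 2 did. A mark of silent chromatin does not measure expression, so these markers do not check the cell type.

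Regions were packed densely at the locus. Among 2580 windows of 1 Mb across the genome that held any region, the median window had 16 regions, and with 75 the locus ranked 3 in number, after windows with 96 and 88. No other window of chromosome 18 had more than 51. The windows were laid so that the locus filled 1 of them, while their borders may cut other clusters. This may favour the ranks of the locus. The regions themselves were small, from 195 to 1069 bp, with a median of 337 bp against 282 bp for all regions. By counts summed over the 4 libraries the locus ranked 27, so its rank in reads was lower than its rank in regions. Per kb of region width, the median level was 40.2 CPM at the locus and 35.2 CPM over all regions.

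The 3 arrays differed in how many regions they held. Pcdha, at chr18:36930285-37188897 (GRCm38), held 32 regions, or 12.4 per 100 kb. Pcdhb, at chr18:37264998-37521419, held 29, or 11.3 per 100 kb. Pcdhg, at chr18:37661775-37841873, held 5, or 2.78 per 100 kb. Between Pcdha and Pcdhb lay 2 regions (2.63 per 100 kb), and between Pcdhb and Pcdhg 6 (4.27 per 100 kb). Before Pcdha1 lay 1, and 0 lay after the last base of Pcdhg. Pcdhg and the 2 stretches between the arrays were thus sparse beside Pcdha and Pcdhb. They were not sparse beside the genome, where the median 1 Mb window with any region held 16. In the table, a stretch with no region is one where none was listed, and the signal there is unknown.

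**Figure D1:**
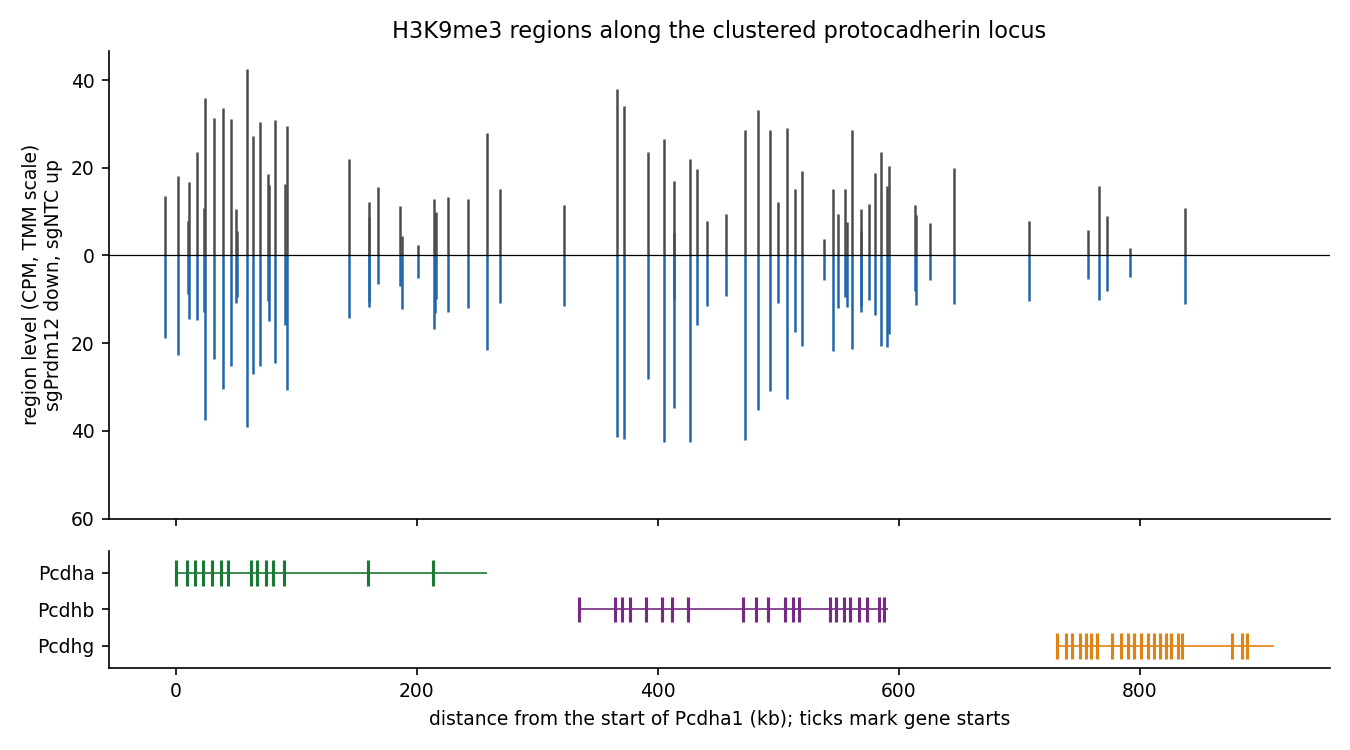
Mean level of each of the 75 regions (CPM on the TMM scale, n = 2 libraries per group), with sgNTC drawn upward and sgPrdm12 downward, against the distance from the start of Pcdha1 in kb. Ticks below mark gene starts, and the Pcdha array holds 32 regions and the Pcdhb array 29, while the Pcdhg array holds 5.

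Within the arrays most listed regions lay in the first 3 kb after a gene start, and mostly well past the start itself. These were 21 of 32 in Pcdha, 23 of 29 in Pcdhb and 4 of 5 in Pcdhg. Whether they lay inside the variable exons was not tested. All 14 Pcdha genes and 20 of 22 Pcdhb genes had a region in the first 3 kb after the gene start, a length chosen to hold the variable exon because gene spans were known here but not their exons. In Pcdhg 4 of 22 did. The region's centre lay at a median of 1882 bp after the start in Pcdha, 1906 bp in Pcdhb and 2071 bp in the 4 Pcdhg genes. All 20 marked Pcdhb genes had their first marked base 745 bp or more past the start. In Pcdha the first marked base lay more than 500 bp past the start in 12 of 14 genes, the exceptions being the C-type genes Pcdhac1 and Pcdhac2.

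Gene starts themselves carried no region in nearly all genes. In 0 of the 58 genes did a region touch the 500 bp before the start, where the promoter lies, and in 2 of 58 it touched the first 500 bp of the gene. The position was shared most closely at 1900 to 1999 bp in Pcdha, where 13 of 14 genes were covered, and at 1800 to 1899 bp in Pcdhb, where 19 of 22 were. All 4 marked Pcdhg genes were covered at 2000 to 2099 bp.

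**Figure D2:**
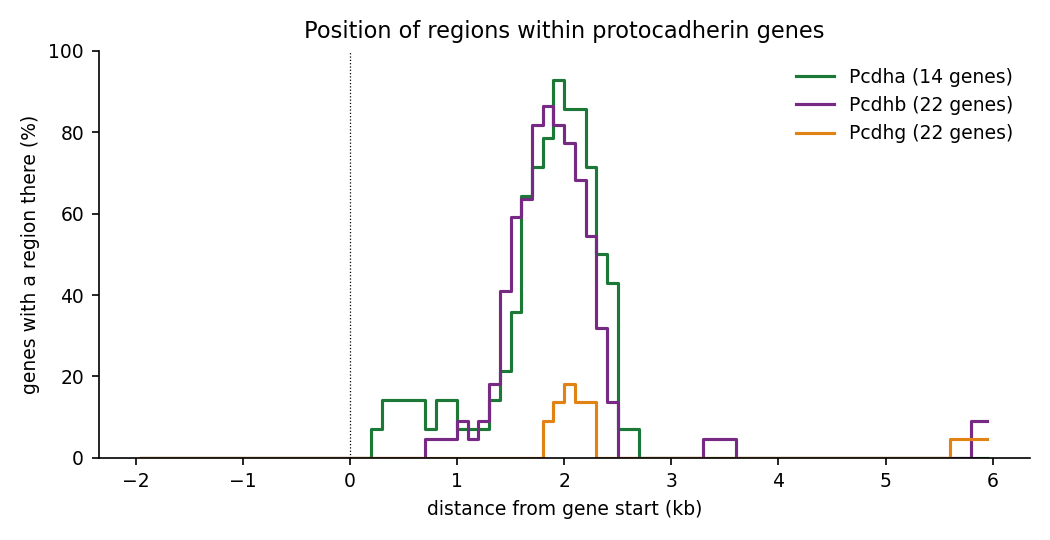
Share of genes (%) with a listed region in each 100 bp step from 2 kb before to 6 kb after the gene start, for the 14 Pcdha, 22 Pcdhb and 22 Pcdhg genes. All 3 lines peak near 2 kb, at 92.9% for Pcdha, 86.4% for Pcdhb and 18.2% for Pcdhg, and lie at 0 over the 2 kb before the start.

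The first 3 kb of all 58 genes together made up 17.4% of the locus and held 74.1% of the bases in regions. They held 48 of the 75 regions. Of the counts at the locus they took 69.9% and 73.4% in sgNTC and 73.8% and 76.5% in sgPrdm12. All 4 libraries were counted over the same listed regions. Their shares lie near the 74.1% of bases and do not show the concentration separately in each library. For comparison, 20 of 22 Pcdhb spans overlapped a region (90.9%), against 242 of the 3096 other protein-coding genes with spans of 2 to 6 kb (7.82%). Of the 1110 olfactory receptor genes, another family of small clustered genes, 83 did (7.48%). Their median span was 950 bp, against 3417.5 bp for Pcdhb. Of the 89 olfactory receptor genes with spans of 2 to 6 kb, 5 did (5.62%). Of 397 zinc finger genes with Zfp symbols, whose spans are longer, 118 did (29.7%). These shares describe where regions were listed and were not tested.

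Parts of the variable exons are near copies of each other, and the sources used here do not say whether reads that match several copies were kept. Reads of 1 exon may therefore have been counted at another, and values for single genes of the arrays are uncertain to that extent. The same limit holds for the number of marked genes and for the position that they share. The part of such reads in this pattern was not tested.

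All 14 Pcdha genes had a listed region in the first 3 kb, with counts in each of the 4 libraries. The list of regions is the same for both groups, so it does not show marking in sgNTC on its own. Per kb of region width their mean level over the 4 libraries ran from 34.5 to 51.0 CPM, a narrow range. Pcdha4, one of the alternate isoforms, carried the most reads in its first 3 kb, at 44.0 and 49.3 CPM in sgNTC and 40.8 and 59.6 CPM in sgPrdm12 over 2 regions. Pcdha3 carried the fewest, at 20.6 and 26.5 CPM against 17.7 and 11.7 CPM.

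By gene interval, from one gene start to the next, Pcdha7 had the most reads, 536 in all over 4 regions. Only 1 of these lay in its first 3 kb. The other 3 overlapped the pseudogene Gm36858, among them 1 of the 5 regions with the most counts of the locus, at chr18:36988548-36989476, with 32 and 34 counts in sgNTC against 109 and 68 in sgPrdm12. Pcdha3 had the fewest, 109.

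The C-type genes, which many neurons express without random choice, were marked differently within Pcdha. At Pcdhac1 the regions of the first 3 kb lay between 292 and 967 bp after the start, and none lay at 1900 to 1999 bp, where the other 13 Pcdha genes were covered. Pcdhac2 had 3 regions between 338 and 2656 bp. The stretch that holds the constant exons, from 3 kb past the start of Pcdhac2 to the common end of the array, spans 42.2 kb and held 3 regions. The most covered of these, at chr18:37188019-37188446, lay near the common end of the gene spans and had 16 and 28 counts against 42 and 47.

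Of the Pcdhb genes, only Pcdhb1 and Pcdhb4 had no region in their span. Pcdhb1 stands apart at the start of the array. In Pcdhb2 to Pcdhb12, 10 marked genes, the marked width was 656 to 1069 bp with a median of 939 bp. In Pcdhb13 to Pcdhb22, also 10 genes, it was 256 to 695 bp with a median of 439 bp. This split was chosen after the values were seen. Per kb of region width the median level was 36.9 CPM in the former and 42.8 CPM in the latter, so the listed regions differed more in width than in level per kb. Whether the extent of the mark itself differed was not tested.

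Of the 5 regions with the most counts, 4 lay in this array. Pcdhb2, at chr18:37296277-37297217, stood at 39.8 and 36.1 CPM in sgNTC and 40.8 and 41.8 CPM in sgPrdm12. Pcdhb3, at chr18:37302066-37303135, stood at 27.5 and 40.9 CPM against 38.2 and 45.5 CPM. Across the 75 regions the log2 of the summed count and the region width had a correlation of 0.88, as a description, so the most covered regions were largely the widest. By gene interval Pcdhb8 had the most reads, 450 over 4 regions, 3 of which lay past its first 3 kb in the gap before Pcdhb9.

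**Figure D3:**
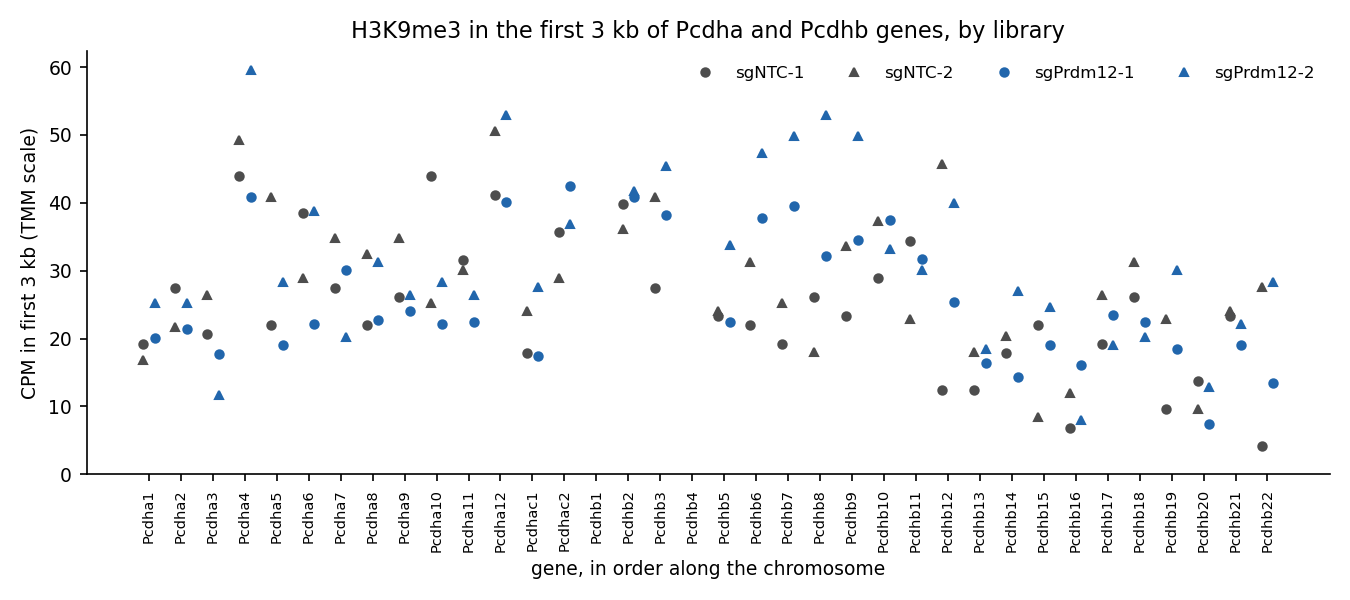
Level in the first 3 kb (CPM on the TMM scale) of each Pcdha and Pcdhb gene in the 4 libraries, circles for replicate 1 and triangles for replicate 2, in order along the chromosome. Pcdhb1 and Pcdhb4 have no point because no region was listed there. Both sgPrdm12 libraries lie above both sgNTC libraries at Pcdha1, Pcdhac2, Pcdhb2 and from Pcdhb6 to Pcdhb9. They lie below both at Pcdha3, Pcdha11, Pcdhb18 and Pcdhb21. Over all tested single regions 20.2% had both above and 16.4% both below.

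The Pcdhg array, which interleaves A-type and B-type genes and ends with C-type genes, held few listed regions beside Pcdha and Pcdhb. Of its 22 genes, 18 had none in the first 3 kb. The exceptions were Pcdhga4, Pcdhga5, Pcdhgb4 and Pcdhga12, with 26 to 73 counts each over the 4 libraries together. Pcdhga5 had the most reads by gene interval, 129 over 2 regions. The C-type genes Pcdhgc3, Pcdhgc4 and Pcdhgc5 and the constant stretch behind them held 0 regions. Per kb of region width the 4 marked genes stood at 14.5 to 37.6 CPM, so the lowest lay below every marked Pcdha and Pcdhb gene.

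Of the 27 regions outside the first 3 kb of any gene, 11 lay in Pcdha, 6 in Pcdhb, 6 between Pcdhb and Pcdhg, 2 between Pcdha and Pcdhb, 1 in Pcdhg and 1 before Pcdha. They were narrower, with a median of 263 bp against 407 bp for the 48 others. Another annotated gene was overlapped by 5 of them. These were the 3 in Gm36858, 1 in the pseudogene Gm6756 before Pcdha1, and 1 at Slc25a2, a mitochondrial carrier gene between Pcdhb and Pcdhg.

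The comparison of sgPrdm12 with sgNTC asked whether H3K9me3 at the locus differed after targeting of Prdm12. Relative to the typical region, 0 of 70 tested regions were higher and 0 lower in sgPrdm12 by edgeR's quasi-likelihood test at an adjusted p under 0.05. Over all tested regions 0.11% were higher and 0.377% lower, so a list of this size would hold few calls at the background rate. An unadjusted p under 0.05 was reached by 2 regions, in Pcdhb7 and Pcdhb8, while the share over all tested regions was 6.41%. With DESeq2 size factors 0 of 70 were called either, against 0.0294% higher and 0.257% lower over all tested regions. The DESeq2 Wald test also made 0 calls, against 0.0241% higher and 0.35% lower over all tested regions, and 0 regions had an unadjusted p under 0.05, against 2.41%. With limma-voom 0 were called, against 0.00267% and 0.297%, and 2 had an unadjusted p under 0.05, against 5.02%. On simulated counts of this depth the edgeR test called none of the smaller changes put in and a minority of the larger ones. The spread between replicates in that simulation was set in advance, not estimated from these data. The simulation therefore does not give the share of changes that the test would call here. With so few counts per region, 0 calls do not show that the regions were alike. Of the 75 members 5 were too low in counts to be tested, namely 2 in Pcdhg, 2 in Pcdhb and 1 in Pcdha.

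The median log2 fold change of the 70 tested regions was 0.00, against -0.01 over all regions. The values ran from -1.31 to 1.40, and their standard errors from 0.36 to 1.07. Medians per region in sgNTC were 10 and 13 counts, so single regions could show only large differences. Both sgPrdm12 libraries stood above both sgNTC libraries in 12 of the 70 (17.1%), against 20.2% over all tested regions. Both stood below in 9 (12.9%), against 16.4%. Both shares were near or under the background.

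Summed over the locus, the level was 1228 and 1363 CPM in sgNTC and 1221 and 1449 CPM in sgPrdm12. The groups overlapped, at 1296 ± 95.1 and 1335 ± 161 CPM (SD, n = 2), with a log2 ratio of 0.04. Among 1817 windows of 1 Mb with at least 10 regions the median log2 ratio was 0.02, with 90% of windows between -0.38 and 0.39, so the locus stood near the middle. The ratio was -0.01 in batch 1 and 0.09 in batch 2.

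The arrays lay on opposite sides of that value. Pcdha stood at 577 and 623 CPM in sgNTC and 498 and 606 CPM in sgPrdm12, a log2 ratio of -0.12, and the groups overlapped. Pcdhb stood at 492 and 580 CPM in sgNTC and 580 and 698 CPM in sgPrdm12, a log2 ratio of 0.25, with the lower sgPrdm12 library just above the higher sgNTC one. Pcdhg stood at 38.5 and 48.1 CPM against 39.8 and 38.7 CPM, a log2 ratio of -0.14, with the sgPrdm12 values within the range of sgNTC. Within batches 1 and 2 the ratio was -0.21 and -0.04 for Pcdha, 0.24 and 0.27 for Pcdhb, and 0.05 and -0.31 for Pcdhg, so the sign of Pcdhg differed between batches. The 6 regions between Pcdhb and Pcdhg stood at 74.2 and 78.2 CPM in sgNTC and 62.6 and 65.8 CPM in sgPrdm12, a log2 ratio of -0.25 in each batch, and the groups did not overlap. These sums over members were not tested.

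Counts of Pcdhb as a share of those of Pcdha and Pcdhb together need no scaling between libraries. The share was 46.0% (Wilson 95% interval 42.5 to 49.5) in replicate 1 of sgNTC, and replicate 2 had 48.2% (45.1 to 51.3). For sgPrdm12 replicate 1 had 53.8% (52.1 to 55.6) and replicate 2 had 53.5% (51.4 to 55.7). Only counting error enters these intervals. Both sgPrdm12 libraries thus stood above both sgNTC libraries, and with 2 libraries against 2 an exact permutation test cannot go below p = 0.333. The sgPrdm12 libraries were also the deeper ones, with 3649 and 2357 counts at the locus against 894 and 1133, and the part of depth in this difference was not tested. The comparison of these shares was chosen after the values were seen.

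**Figure D4:**
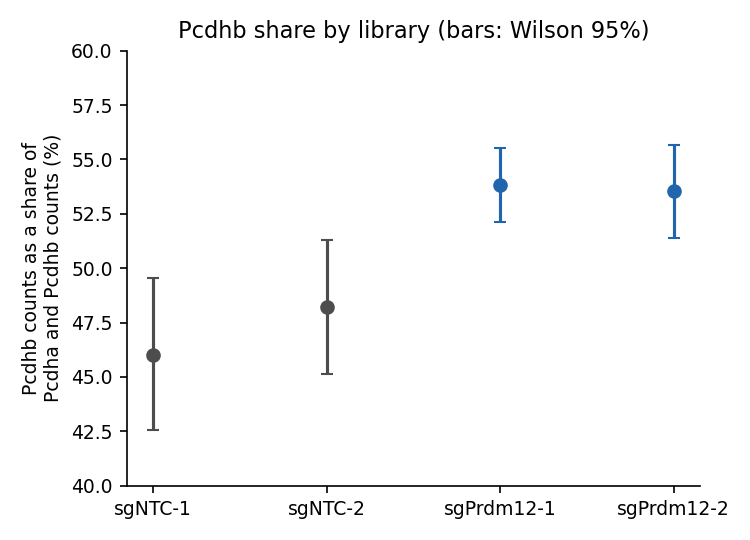
Counts in the Pcdhb array as a share (%) of the counts in Pcdha and Pcdhb together, 1 point per library with its Wilson 95% interval, on an axis from 40 to 60%. The sgNTC libraries lie at 46.0% and 48.2% and the sgPrdm12 libraries at 53.8% and 53.5%.

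Part of the difference lay in 5 adjacent genes, Pcdhb5 to Pcdhb9, picked after their values were seen. In sgNTC their first 3 kb took 83 and 110 counts, and in sgPrdm12 497 and 380, or 23.2% and 22.8% against 28.7% and 33.5% of the Pcdhb counts. With these regions left out, Pcdhb made up 39.6% and 41.8% in sgNTC and 45.4% and 43.4% in sgPrdm12, so the groups still did not overlap. That they lay closer follows from the choice of these genes, whose values were known to be higher in sgPrdm12. In Pcdhb as a whole, 8 of 27 tested regions had both sgPrdm12 libraries above both sgNTC libraries and 3 of 27 had both below, and in Pcdha these were 3 and 4 of 31. Over all tested regions 20.2% had both above and 16.4% both below, and the difference of the arrays from these shares was not tested.

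Pcdhb7 and Pcdhb8 had the smallest p of the locus. The wider region of Pcdhb7, at chr18:37343037-37343680, stood at 12.4 and 21.7 CPM in sgNTC and 28.8 and 40.6 CPM in sgPrdm12, a log2 fold change of 0.99 (SE 0.43, edgeR adjusted p = 0.627). Its groups did not overlap. The other region of Pcdhb7 had 5 and 3 counts against 32 and 15, at 0.94. The region in Pcdhb8, at chr18:37356322-37357355, had 19 and 15 counts against 96 and 86, a log2 fold change of 0.93 (SE 0.40, edgeR adjusted p = 0.623). Its ratio was 0.30 in batch 1 and 1.55 in batch 2, so replicate 2 carried most of it.

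Pcdhb6 and Pcdhb9 lie on either side and were among the 5 most covered regions. Pcdhb6, at chr18:37335320-37336284, stood at 22.0 and 31.3 CPM in sgNTC and 37.8 and 47.3 CPM in sgPrdm12, a log2 difference of 0.66 (SE 0.38, edgeR adjusted p = 0.861). Pcdhb9, at chr18:37402280-37403322, stood at 23.4 and 33.7 CPM against 34.5 and 49.8 CPM, at 0.54. None of these passed the test. The most covered regions elsewhere stood at 0.12 for Pcdhb2, 0.27 for Pcdhb3 and -0.12 for the region in Gm36858. Pcdhb3 thus lay near the log2 ratio of 0.25 of Pcdhb as a whole.

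With counts summed over all regions within 5 kb of a gene, Pcdhb7 stood at 0.99 (SE 0.37, edgeR adjusted p = 0.142) and Pcdhb6 at 0.66 (SE 0.35, edgeR adjusted p = 0.464). Among the 7801 genes tested 1.19% were higher and 1.72% lower.

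The other values at the ends of the range came from small regions in Pcdha and between the arrays. The highest, at 1.40 (SE 0.81, edgeR adjusted p = 0.861), lay between the starts of Pcdhac1 and Pcdhac2 at chr18:37117596-37117933 and rested on 3 and 4 counts in sgNTC against 30 and 23. The lowest, at -1.31 (SE 0.67, edgeR adjusted p = 0.79), lay in the same gap at chr18:37098004-37098328, with 8 and 17 counts against 18 and 11. A small region in Gm36858 stood at 0.74, with 3 and 6 counts against 33 and 13. These regions hold few reads, and neighbours in the same gap pointed in opposite directions.

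Among the 4 other low values, a region of Pcdha10 stood at -0.82, with 20 and 8 counts in sgNTC against 32 and 16 in sgPrdm12. One between Pcdhb and Pcdhg stood at -0.83, with 9 and 23 against 39 and 15, one between Pcdhac1 and Pcdhac2 at -0.68, with 5 and 13 against 22 and 11, and Pcdha3 at -0.65. In the first 3 of these the sgNTC libraries differed from each other by more than the group means did, since one sgNTC library was close to sgPrdm12. Replicates also lay far apart within sgNTC at Pcdhb12, with 9 and 38 counts, and at Pcdhb22, with 3 and 23.

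**Figure D5:**
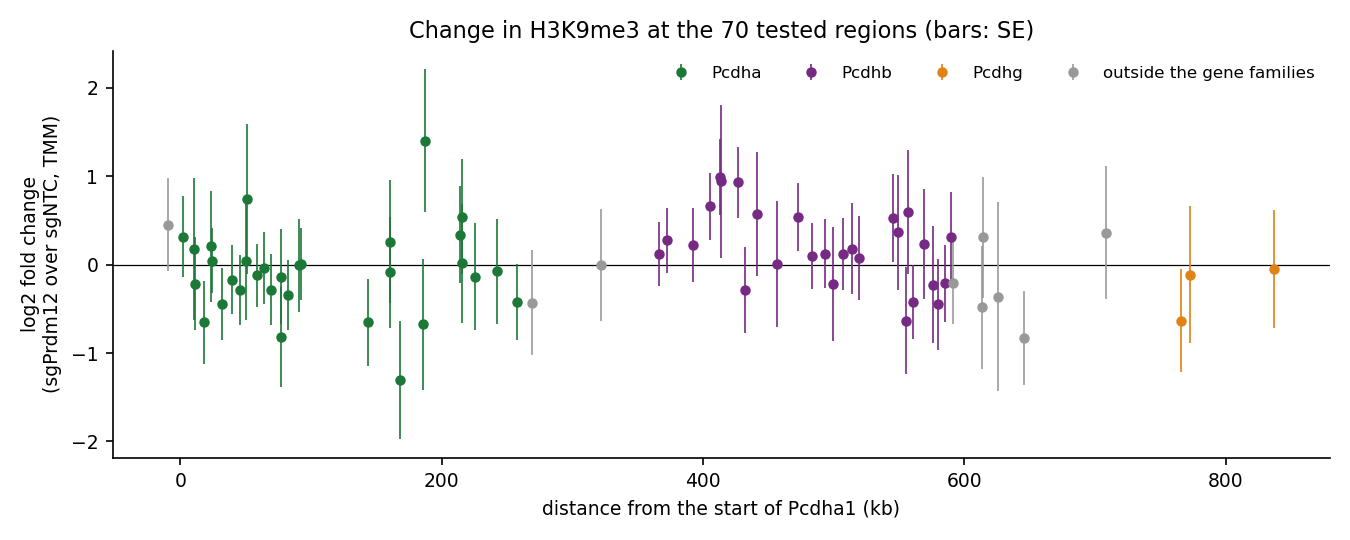
Log2 fold change of H3K9me3 (sgPrdm12 over sgNTC, TMM scale) at the 70 tested regions against the distance from the start of Pcdha1 in kb, with bars for the standard error. None passed the test, and the values run from -1.31 to 1.40. Above 0 lie 35 of the 70 regions, among them 20 of the 27 tested in Pcdhb and 12 of the 31 tested in Pcdha.

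In fixed bins of 100 kb, which sum neighbouring regions, 9 of the 10 bins of the locus held regions and 0 were called. Over all 15637 tested bins 0.301% were higher and 0.755% lower, and 8.94% had an unadjusted p under 0.05. With DESeq2 size factors 0 were called as well, against 0.294% and 0.767%. The bin that holds Pcdhb3 to Pcdhb8 stood at 161 and 171 CPM in sgNTC and 213 and 259 CPM in sgPrdm12. Its groups did not overlap, and it stood at 0.49 in log2 fold change (SE 0.22, unadjusted p = 0.0257, edgeR adjusted p = 0.435). The next bin, which holds Pcdhb9 to Pcdhb19, stood at 0.16.

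The 3 bins of Pcdha, from the start of the locus, stood at -0.09, -0.31 and 0.00, and the bin with Pcdhb1 and Pcdhb2 at 0.08. The bin from Pcdhb20 into the gap before Pcdhg stood at -0.24, with 126 and 150 CPM against 110 and 128 CPM. Both bins that reach into Pcdhg held few reads, 14 to 24 counts per sgNTC library, and stood at -0.22 and 0.11. The standard errors ran from 0.22 to 0.44.

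The choice of scale moved all values together. With the authors' constants, which multiply the counts of each library by 1 factor to give the authors' normalized signal, the median log2 fold change of all regions was 1.00 and that of the locus 1.01. With library totals alone they were 0.56 and 0.56. The locus thus followed the median of all regions on each scale. With the authors' constants 17 of 70 regions of the locus (24.3%) passed as higher, against 20.8% of all tested regions, and 0 passed as lower, against 0.139%. These were 12 of 27 in Pcdhb, 4 of 31 in Pcdha, 0 of 3 in Pcdhg and 1 before Pcdha1. With library totals 3 of 70 passed as higher, against 2.5%, and 0 as lower, against 0.211%. The 3 were those of Pcdhb6, the wider one of Pcdhb7, and Pcdhb8. Of the 9 bins, 3 passed as higher with library totals, against 18.1% of all bins, and 8 with the authors' constants, against 57.8%. As lower 0 passed, against 0.409% and 0.224%. Relative to all regions, the median of Pcdhb stood at 0.19 and that of Pcdha at -0.08 with TMM, and at 0.19 and -0.09 with the authors' constants. With TMM the median of Pcdhb regions rested on single libraries, since the median log2 fold change itself was -0.01 without sgNTC-1 and 0.03 without sgPrdm12-2.

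Across libraries, levels at the 75 regions correlated more than those of all regions did, as a description over sites that share width and sequence depth. Pearson's r of the log2 of count + 1 was 0.62 within sgNTC and 0.73 within sgPrdm12, and 0.67 to 0.73 between the groups. Over all 46409 regions it was 0.51, 0.52 and 0.47 to 0.55. At the locus r was thus no higher within sgNTC than between the groups. The sgNTC libraries were also the shallower ones, with medians of 10 and 13 counts per region against 40 and 26 in sgPrdm12. The part of depth in these correlations was not tested.

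Outside the locus, 16 of 23 listed other protocadherins and large cadherins had regions. Some of these genes are very long, such as Pcdh15 at chr10:73096277-74649831. The share with regions was not compared with that of genes of like length. Of the 16, 0 were higher or lower, against 1.19% and 1.72% of all genes. Of all genes 12.2% had an unadjusted edgeR p under 0.05. In the list 0 of 16 did. Their median log2 fold change was -0.13, against -0.03 over all genes tested. Dchs2, a large cadherin, stood at 0.39, with 83 and 91 counts in sgNTC against 393 and 262 in sgPrdm12 (edgeR adjusted p = 0.483). Pcdh7, a protocadherin that stands alone in the genome, stood at -0.96, with 15 and 16 against 16 and 26 over 1 region (edgeR adjusted p = 0.555). Its value was -0.34 without sgPrdm12-1 and -1.90 without sgPrdm12-2. These were the genes with the smallest p of the list, and neither passed.

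Of 23 listed genes known to regulate the locus, such as those for CTCF, cohesin, SETDB1 and SMCHD1, 4 had a region within 5 kb, namely Atf7ip, Cbx3, Ehmt2 and Stag2. Of these 3 could be tested, 0 were higher or lower, and their median was 0.09. An unadjusted p under 0.05 was reached by 1 of 3, Cbx3, against 12.2% of all genes. Cbx3, which encodes a heterochromatin protein 1, stood at 0.75, with 12 and 26 counts against 120 and 67 over 1 region (edgeR adjusted p = 0.373). It was 0.37 without sgNTC-1 and 1.26 without sgNTC-2. Ehmt2, which encodes an H3K9 methyltransferase, stood at -0.54 with 2 and 9 counts against 3 and 15. The mark at these genes does not measure their expression. Of the 19 tested genes of both lists, 0 were called with DESeq2 size factors, against 1.08% higher and 1.69% lower over all genes. With library totals 4 were higher and 0 lower, against 15.1% and 0.897%, and with the authors' constants 10 and 0, against 44.5% and 0.41%.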

How the data were processed

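H3K9me3 CUT&Tag was analysed in 2 sgNTC and 2 sgPrdm12 libraries, from 1 table of 46409 regions. The deposited read counts are whole numbers per region and library, with no normalization. The deposited normalized signal is each count times 1 constant per library, from 0.638 to 1.29, whose derivation the sources do not give. Per the submitters' processing notes, Trimmomatic, Bowtie2, MACS2 and DiffBind were used and the build was GRCm39. However, a region lay at 1900 to 1999 bp past the start in 13 of 14 Pcdha genes of the RefSeq table for GRCm38, and at 1800 to 1899 bp in 19 of 22 Pcdhb genes, so coordinates were taken to be GRCm38. Starts and ends appear as deposited, and whether starts count from 0 or 1 is unknown. The sources used here do not say how regions were called or whether replicates were pooled for it.

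Counts of regions, of 100 kb bins and of genes (regions within 5 kb of a span) were tested over the whole table with edgeR 4.0.16 (quasi-likelihood, TMM, filterByExpr, no block, two-sided, Benjamini-Hochberg adjusted p under 0.05) in R 4.3.3. The SE was derived as |log2 fold change| over the root of F. On simulated counts edgeR gave back the size of the changes put in, but called none of the smaller ones and part of the larger ones. The spread between replicates in the simulation was set in advance, not estimated from these data. Members and lists were chosen with earlier results of these data known. Named regions were the top 5 and bottom 5 by log2 fold change, the 5 with the most counts, and any called, and of each list the 2 genes with the smallest p. The labels tie replicate numbers to batches, so the numbers pair libraries, although across regions the replicate differences of the groups had a correlation of -0.01. Alternatives included DESeq2 1.42.0, limma 3.58.1 (voom), other scales, no filter, a replicate block and each library left out. Confidence intervals are Wilson 95% intervals. Repeats were not annotated.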

Additional observations from a re-analysis of the deposited data

How the results depend on the processing

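The replicate block changed no call: it gave 0 called regions, bins and listed genes, and log2 ratios of 0.04 for the locus, -0.13 for Pcdha, 0.25 for Pcdhb and -0.13 for Pcdhg. With DESeq2 size factors, no filter, limma-voom, the DESeq2 Wald test, an adjusted p threshold of 0.1, 50 kb bins or any 1 library left out, 0 regions, bins and listed genes were called. The scales by total counts and by the authors' constants moved every count of calls and every ratio. With total counts 3 regions, 3 bins and 4 listed genes were called, all higher. The log2 ratios were then 0.61 for the locus, 0.44 for Pcdha, 0.82 for Pcdhb and 0.43 for Pcdhg. With total counts without the 10 most covered regions, these ratios were 0.15, -0.01, 0.36 and -0.03. Those 10 regions thus carried most of the shift of these ratios under total counts. With the authors' constants 17 regions, 8 bins and 10 listed genes were called, all higher, and the ratios were 1.06, 0.89, 1.27 and 0.88. Leaving out 1 library in turn gave -0.09 to 0.16 for the locus, -0.27 to 0.01 for Pcdha, 0.12 to 0.38 for Pcdhb and -0.29 to 0.030 for Pcdhg, the last reached without sgNTC-2. Low values that changed sign with the authors' constants were those between Pcdhb and Pcdhg (0.19), of Pcdha10 (0.19), after Pcdhac1 (0.34), of Pcdha3 (0.37) and of Pcdh7 (0.039). The region in Gm36858 changed sign with total counts (0.44) and the authors' constants (0.89). So did the bins numbered 1, 2, 7 and 8 along the locus, at 0.48, 0.26, 0.34 and 0.36 with total counts and 0.93, 0.72, 0.79 and 0.81 with the authors' constants. Without sgNTC-1 the region of Pcdha10 stood at 0.025, within a range of -1.51 to 0.025 over libraries left out, and without sgNTC-2 Ehmt2 stood at 0.78, within -1.15 to 0.78. With 10 and 13 counts per region at the median in sgNTC, depth limits every single region.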
